A study of Physalis pubescens with 5 samples.

Results

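The ethylene response and AP2/ERF transcripts of Physalis floridana P106 were the unigenes, that is, transcripts assembled from the reads, whose deposited protein description named an ethylene receptor, an ethylene-responsive or ethylene-insensitive protein, EIN3, AP2/ERF, APETALA2, AINTEGUMENTA or a dehydration-responsive element. There were 204 of them among 133571 unigenes, and 181 had counts in all 4 libraries. The rule read the descriptions and no measured value. Their best database hits were 121 proteins, 46 of them hit by more than 1 unigene, and 152 of the 204 unigenes hit a protein of tomato (Solanum lycopersicum). They were 152 to 2281 bases long, with a median of 484 bases. Unigenes that share a hit may be pieces, alleles or copies of 1 gene, and the deposited counts are of uniquely mapped reads, so the separate levels of such unigenes are uncertain.

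The study compared young fruits, labelled as taken after fertilization, with floral buds, labelled as taken before it, to follow the transition of flower into fruit. P106 is a cultivar of a small nightshade, labelled Physalis pubescens in the organism field, and all plants were of this cultivar with no treatment named, grown in a glasshouse under 16 h of light and 8 h of darkness. The labels give 2 libraries per organ, although the design text speaks of triplicates, and they are called fruit 1, fruit 2, bud 1 and bud 2 here. Another sample, of mixed organs, served the transcript assembly and was not analysed here. Plant age is not in the labels, the protocol text that mentions 5-day-old fruits is shared by every sample, and no label says whether the 2 libraries of an organ were from different plants. The p-values therefore reflect only how far these libraries differ, which could be technical.

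Ethylene is a gaseous plant hormone that binds membrane receptors related to bacterial histidine kinases. The receptors hold the pathway off while they are empty, and once ethylene binds, EIN3 and EIN3-like transcription factors build up and switch on genes of ERF factors, while EIN3-binding F-box (EBF) proteins mark EIN3 for destruction. ERF, DREB and AP2 proteins share the AP2 DNA-binding domain: ERF and DREB factors are best known in stress and hormone responses, AINTEGUMENTA-type AP2 factors in the growth of floral organs and ovules, and in tomato the hormone drives fruit ripening.

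The libraries held 8240033 to 9002212 counts. One count was worth 0.111 to 0.121 CPM (each library's counts scaled to the same total), and 3 counts, the limit that a count of 0 allows, lay at 0.333 to 0.364 CPM; these limits and the intervals below cover counting error only. Marker lists were built from the descriptions. By fold, fruit 1 stood further from the buds than fruit 2 did in the pollen and photosynthesis lists. In the pollen list the fruits lay outside the buds on opposite sides. The 63 pollen and anther unigenes added up to 968 CPM in fruit 1 and to 7388 CPM in fruit 2, against 3493 and 4176 CPM in buds 1 and 2; 14 of them were at 0 in fruit 1 and 4 in fruit 2, against 3 in each bud. The 128 photosynthesis unigenes reached 16734 CPM in fruit 1 but 6099 CPM in fruit 2, against 6961 and 6916 CPM in buds, and the 47 seed storage and embryo unigenes 245 and 634 CPM in fruits 1 and 2, against 5377 and 5567 CPM in buds. The 74 MADS-box unigenes, a family that sets floral organ identity, summed to 1496 and 1388 CPM in fruits, against 1515 and 1653 CPM in buds. Seed storage proteins are known for building up in seeds, after fertilization. The seed and embryo list holds vicilin, globulin and legumin names, but also oleosin and late embryogenesis names, so its sum does not stand for storage proteins alone. It was the higher one in both libraries labelled as buds taken before fertilization. The pollen list was highest in a library labelled fruit and also lowest in a library labelled fruit. These sums do not follow a plain reading of the labels. The MADS-box sums of fruit 1 and bud 1 were close. Whether a label is wrong was not tested. The labels were kept as given, so every comparison of fruit with bud below is one of libraries as labelled. The part of these lists in the results below was not tested. In whole organs, fewer cells of a type and less RNA per cell cannot be told apart.

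As a group, the ethylene and AP2/ERF unigenes took a similar share of the RNA in both organs. Their counts made up 0.190% of fruit 1 (exact 95% interval 0.187 to 0.193) and 0.235% of fruit 2 (0.231 to 0.238), against 0.20% of bud 1 (0.197 to 0.203) and 0.233% of bud 2 (0.230 to 0.236). Fruit 1 and bud 1 were therefore the 2 lower libraries and the 2 libraries numbered 2 the higher ones, with the organs overlapping. Of the 204 unigenes, 140 passed the filter on low counts and were tested; the other 64 stayed at or under 2.89 CPM in every library.

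No single unigene of the group could be called different between the organs. The edgeR quasi-likelihood test, with p-values adjusted over all 59858 tested unigenes, called 0 of the 140 higher and 0 lower in fruit, where the background was 0.0% in each direction. At an unadjusted p under 0.05 it had 1 of the 140 higher (background 0.51%) and 0 lower (background 1.11%). DESeq2 called 0 of the 146 to which it gave an adjusted p, where it called 0.0491% higher and 0.21% lower of all 61061 with one. The median log2 fold change, fruit over bud, was -0.01 over the 140 and 0.01 over all tested unigenes, and 65 of the 140 had a positive value and 75 a negative one. The counts depended on which fruit was used: without fruit 2 edgeR called 2 higher and 17 lower of 156 (backgrounds 2.29% and 6.14%), and without fruit 1 it called 0 of 151 (backgrounds 1.44% and 0.466%). In both of these fits the lone fruit library is assumed to vary like the buds.

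**Figure D1:**
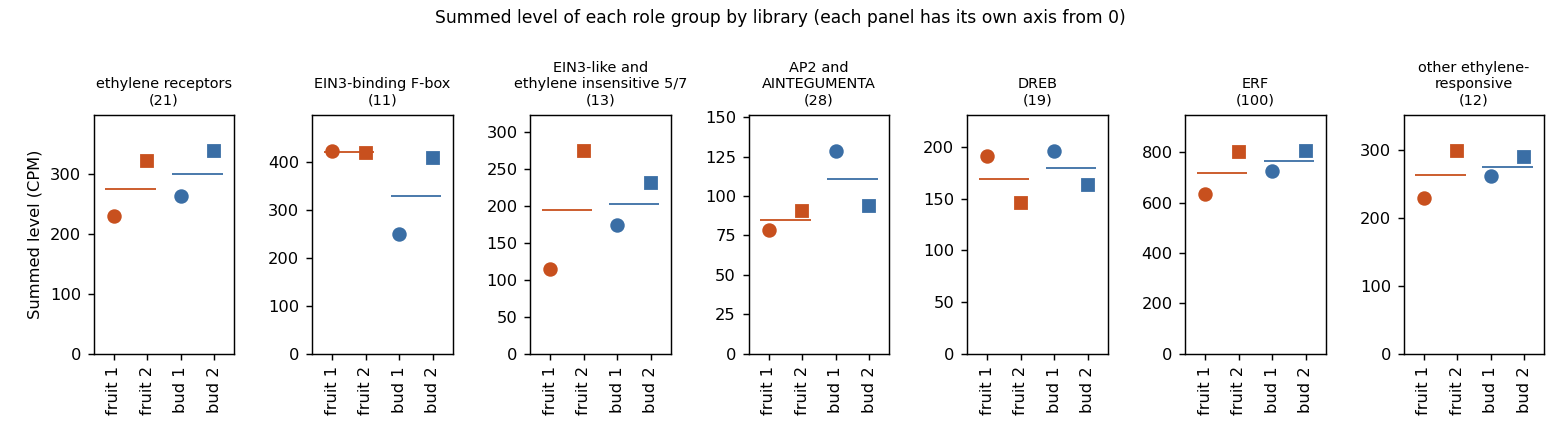
Summed level of each role group of the ethylene and AP2/ERF unigenes, in CPM, in fruit 1, fruit 2, bud 1 and bud 2; circles are libraries numbered 1, squares libraries numbered 2, horizontal lines the mean of the 2 libraries of an organ, and each panel has its own axis from 0. Fruit and bud overlap for receptors, EIN3-like, DREB, ERF and other transcripts. Both fruits lie above both buds for the EIN3-binding F-box group and below them for the AP2 group. These CPM carry no TMM factor, the scaling used in the edgeR test, and with it the organs overlap in these last groups too.

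Folds between libraries are counted here on CPM with TMM scaling factors and a prior count of 2, so a unigene near a limit can fall on the other side of it by the unscaled CPM printed below. Differences past 2-fold were more frequent between the 2 fruits than between either fruit and the bud of its number. Fruit 1 and fruit 2 differed by over 2-fold for 58 of the 140 tested unigenes, or 41.4%, compared with 30.0% of all tested unigenes. Bud 1 and bud 2 did so for 32 of them, or 22.9%, compared with 16.6% of all. Between organs, fruit 1 and bud 1 differed by over 2-fold for 43 of the 140 (30.7%, against 18.5% of all), and fruit 2 and bud 2 for 7 (5%, against 9.10% of all). Fruit 1 alone was at least 2-fold below every other library for 24 of them, where 10.0% of all tested unigenes were, and at least 2-fold above every other for 2, where 2.68% were.

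Changes were also set out within the 2 pairs of libraries that carry the same number, with 1 library per organ and no test. In pair 1, fruit 1 was at least 2-fold below bud 1 for 33 of the 140 (background 13.0%) and at least 2-fold above it for 10 (background 5.43%). In pair 2, fruit 2 was at least 2-fold below bud 2 for 4 (background 3.55%) and above it for 3 (background 5.55%). The median log2 change was -0.29 in pair 1 and 0.02 in pair 2, and over all tested unigenes it was -0.05 and 0. Within 2-fold in both pairs were 95 of the 140, or 67.9%, compared with 77.5% of all tested unigenes. Only 3 of the 140 passed 2-fold in the same direction in both pairs, and they are named under their groups: 2 lower (background 1.85%) and 1 higher (background 0.466%). At 4-fold the numbers were 0 lower (background 0.662%) and 0 higher (background 0.0384%). For 13 of the 140, both libraries numbered 2 were at least 2-fold above both libraries numbered 1 (background 2.73%), and for 3 at least 2-fold below them (background 3.54%), whichever the organ.

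**Figure D2:**
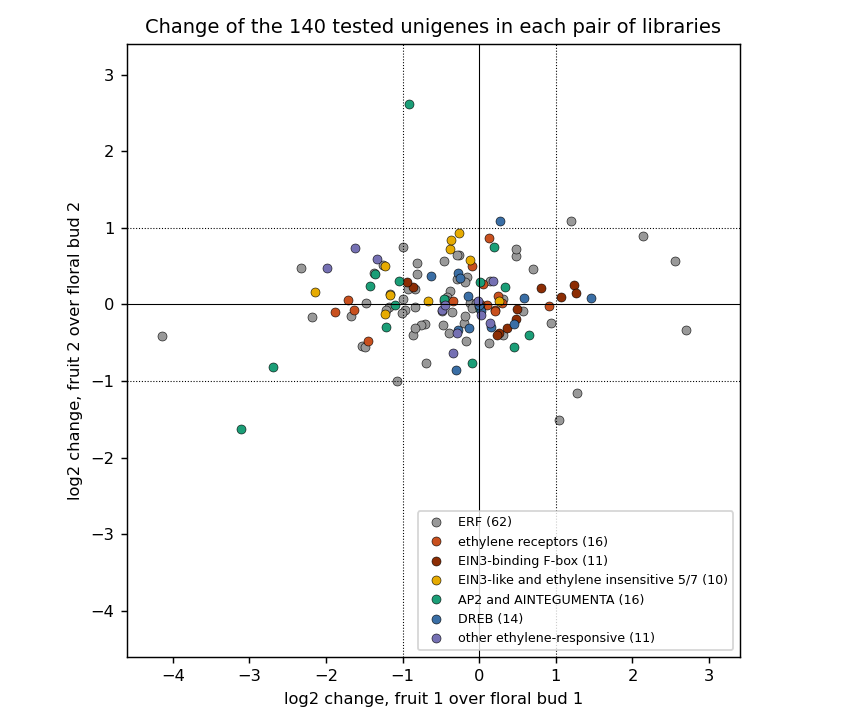
Log2 change of each of the 140 tested unigenes, fruit 1 over bud 1 on the x axis and fruit 2 over bud 2 on the y axis, coloured by role group; dotted lines mark 2-fold, and a prior count of 2 was used. Points spread widely along x, with 33 at least 2-fold lower and 10 at least 2-fold higher, and narrowly along y, with 4 and 3.

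Ethylene receptors formed the first step of the pathway, with 21 unigenes, 16 of them tested; 20 of the 21 also carried the pathway term ethylene receptor in the KEGG database. Their sum was 230 CPM in fruit 1 and 322 CPM in fruit 2, against 264 CPM in bud 1 and 338 CPM in bud 2. The organs overlapped, and the libraries numbered 2 were the higher of each organ. None of the 16 was at least 2-fold apart in pair 2, and 4 were at least 2-fold lower in pair 1.

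All 4 of those receptor unigenes pointed to a single tomato protein described as an ethylene receptor homolog precursor. The longest, Unigene43941_P106, had 13.2 CPM in fruit 1 and 48.8 CPM in fruit 2, against 42.4 CPM in bud 1 and 49.3 CPM in bud 2. Unigene44544_P106 had 7.11 and 40.4 CPM in fruits 1 and 2, against 21.7 and 44.5 CPM in buds 1 and 2, and Unigene44547_P106 had 2.56 and 19.5 CPM in fruits, against 7.17 and 28.8 CPM in buds. In each case fruit 1 was the low library and fruit 2 lay within the range of the buds. Unigene44110_P106 repeated the order, at 1.67 and 7.77 CPM in fruits, against 6.59 and 8.72 CPM in buds. The edgeR log2 fold change of Unigene43941_P106 was -0.49 ± 0.74 (SE, n = 2 libraries per organ) with an adjusted p of 1.0 by edgeR, and without fruit 2 it was -1.90 with an adjusted p of 0.0102. Without fruit 2 the other 3 unigenes were also called lower by edgeR, with adjusted p of 0.00369 for Unigene44544_P106, 0.00253 for Unigene44547_P106 and 0.0221 for Unigene44110_P106. Without fruit 1 the log2 fold changes of the 4 were between 0.14 and 0.39.

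A second tomato protein has the same description but its unigenes held nearly level. Its longest unigene, Unigene79273_P106, had 22.7 and 27.2 CPM in fruits 1 and 2, against 27.9 and 27.6 CPM in buds 1 and 2. Unigene79670_P106 had 14.2 and 10.9 CPM in fruits, against 11.9 and 12.2 CPM in buds. Summed over its 4 unigenes, 2 of them below the filter, this second protein had 37.4 and 38.2 CPM in fruits, against 39.9 and 40.1 CPM in buds. The first protein's 4 unigenes summed to 24.6 and 116 CPM in fruits, against 78.0 and 131 CPM in buds. The level of the pair thus differed by library mainly through the first protein: its share was the smaller one in fruit 1 and the larger one in the other 3 libraries.

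The other abundant receptors had similar values in every library. Unigene16804_P106, described as ethylene receptor and the most abundant receptor unigene, had 49.1 and 54.9 CPM in fruits 1 and 2, against 44.2 and 57.9 CPM in buds 1 and 2, a log2 fold change of 0.04 ± 0.36 (SE). The unigenes that hit tomato LeETR1, a receptor of the ETR1 type, summed to 46.1 and 43.0 CPM in fruits, against 36.9 and 41.2 CPM in buds. Of these, Unigene45180_P106 had the smallest unadjusted edgeR p among receptors with a positive change, at 3.56 and 4.73 CPM in fruits, against 3.12 and 2.63 CPM in buds, with log2 fold change 0.56 ± 0.44 (SE) and unadjusted edgeR p of 0.265. Both fruits lay above both buds, and the difference did not pass the test.

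EIN3-like factors, which carry the ethylene signal to genes, differed in pattern by the protein they hit. A single tomato EIN3-like protein, with fruit 1 lowest as for the first receptor, was hit by 4 unigenes, whose sum was 34.7 CPM in fruit 1 and 127 CPM in fruit 2, against 81.5 CPM in bud 1 and 136 CPM in bud 2. The most abundant, Unigene127959_P106, had 25.2 and 83.9 CPM in fruits 1 and 2, against 57.6 and 96.0 CPM in buds 1 and 2. Fruit 1 was at least 2-fold below every other library in each of the 4, and fruit 2 was within the range of the buds or above it. For Unigene127959_P106 edgeR gave -0.43 ± 0.75 (SE, log2) with an adjusted p of 1.0; without fruit 2 it was -1.73 with an edgeR adjusted p of 0.0197, and without fruit 1 it was 0.24. Without fruit 2, 3 of the 4 were called lower. The weaker EIN3-like 3 unigene that hits Glycine max, Unigene27396_P106, had 2.78 and 3.52 CPM in fruits, against 4.39 and 3.58 CPM in buds, so all 4 libraries were close. The other EIN3-like 3 unigene, Unigene81948_P106, which hits Cucumis sativus and was added after its values were seen, had 8.11 and 3.88 CPM in fruits, against 6.48 and 3.94 CPM in buds, with fruit 1 highest and a log2 fold change of 0.20 ± 0.48 (SE).

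The other name in this step, ethylene insensitive 5/7, belonged to 6 unigenes of 1 tomato protein. All 6 carried the KEGG term of a 5'-3' exoribonuclease, and in Arabidopsis EIN5 is an RNA-degrading enzyme that lowers EBF transcripts. Their sum was 69.2 CPM in fruit 1 and 139 CPM in fruit 2, against 81.0 CPM in bud 1 and 87.3 CPM in bud 2. Fruit 2 was the high library here. Unigene11171_P106 had 28.9 and 42.1 CPM in fruits, against 33.5 and 23.2 CPM in buds, and Unigene69977_P106 had 18.1 and 49.4 CPM in fruits, against 19.1 and 34.7 CPM in buds. Their log2 fold changes were 0.37 ± 0.41 and 0.38 ± 0.69 (SE), within the spread between libraries.

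EBF transcripts encode the F-box proteins that target EIN3. In CPM without TMM factors, they were the only step besides the AP2 group whose 2 fruit sums lay on 1 side of both bud sums. All 11 unigenes passed the filter, all 11 carried the KEGG term EIN3-binding F-box protein, and their sum was 422 CPM in fruit 1 and 418 CPM in fruit 2, against 250 CPM in bud 1 and 408 CPM in bud 2. Bud 1 was the low library, and fruit 2 and bud 2 were close. Divided by the TMM factors of the test, 1.08 for fruit 1 and 0.964 for bud 2, the fruit 1 sum falls below that of bud 2. The organs then overlap. The 11 log2 fold changes ran from 0.01 to 0.77, with a median of 0.12, and none passed the test.

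The 5 unigenes that hit tomato EIN3-binding F-box protein 1 did not move alike. Unigene119052_P106 had 97.1 CPM in fruit 1 and 56.6 CPM in fruit 2, against 39.6 CPM in bud 1 and 49.8 CPM in bud 2. Unigene118506_P106 had 75.0 and 64.2 CPM in fruits, against 30.0 and 60.5 CPM in buds. For both of these, both fruits lay above both buds, and bud 1 was the lowest library. Unigene43804_P106, the longest of the 5 at 1304 bases, instead had 8.66 and 46.2 CPM in fruits 1 and 2, against 16.3 and 39.5 CPM in buds 1 and 2, so that fruit 1 was lowest. Unigene119052_P106 had a log2 fold change of 0.77 ± 0.39 (SE) and an unadjusted edgeR p of 0.112, and Unigene43804_P106 one of 0.04 ± 0.98; without fruit 2 Unigene43804_P106 was at -1.82 with an edgeR adjusted p of 0.0361. A unigene hitting a separate tomato protein, EIN3-binding F-box protein 1-like (Unigene127028_P106), had 7.78 and 53.4 CPM in fruits, against 13.9 and 47.9 CPM in buds. This is the order of Unigene43804_P106, and without fruit 2 it too was called lower, at -2.13 with an edgeR adjusted p of 0.0171. The 4 unigenes of EIN3-binding F-box protein 2 summed to 122 and 73.9 CPM in fruits, against 87.6 and 89.8 CPM in buds, with fruit 1 highest and fruit 2 lowest.

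**Figure D3:**
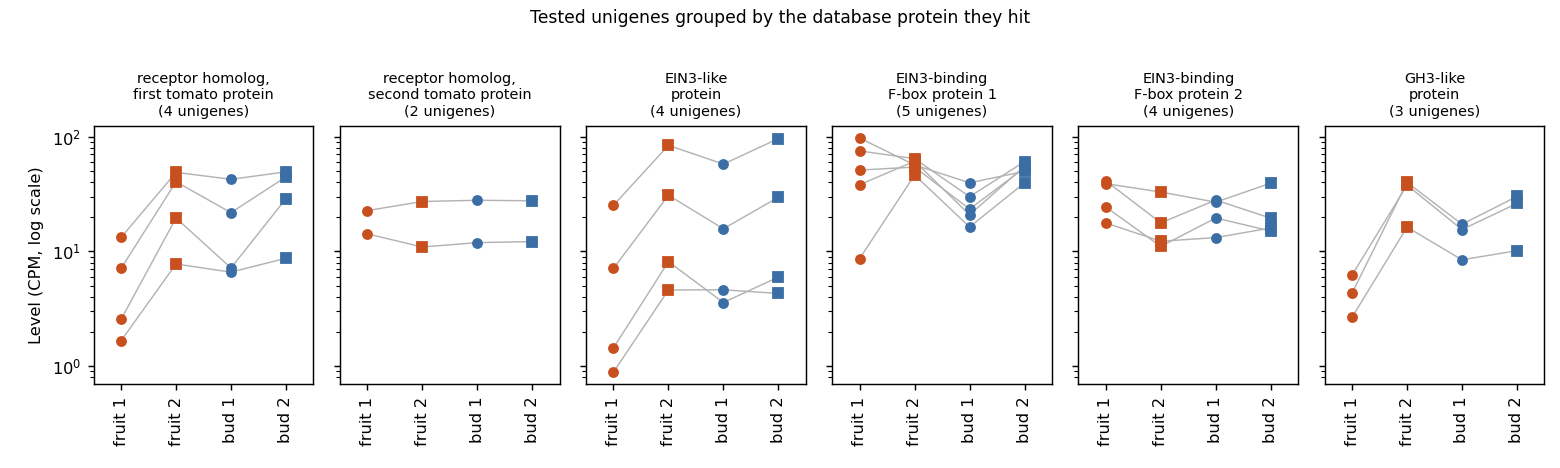
Level in CPM, on a log axis, of the tested unigenes of 6 database proteins in fruit 1, fruit 2, bud 1 and bud 2; each grey line joins the values of 1 unigene. Fruit 1 is the lowest library for every unigene of the first receptor homolog, the EIN3-like protein and the GH3-like protein, the second receptor homolog is level, and 1 of the 5 unigenes of F-box protein 1 departs from the other 4.

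AP2 and AINTEGUMENTA factors are regulators of floral organ and ovule growth. Both fruits had less of them in sum than both buds in CPM without TMM factors. The 28 unigenes, 22 of them with the KEGG term for the ANT lineage and 3 with that for the euAP2 lineage, had a sum of 78.8 CPM in fruit 1 and 90.4 CPM in fruit 2, against 128 CPM in bud 1 and 93.8 CPM in bud 2. Fruit 2 and bud 2 were close, and bud 1 was the high library. Divided by the TMM factors, 0.918 for fruit 2 and 0.964 for bud 2, the fruit 2 sum lies just above that of bud 2. The organs then overlap. Of the 16 tested, 7 were at least 2-fold lower in pair 1 and 1 in pair 2, and 0 and 1 were at least 2-fold higher.

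The most abundant of them, the AINTEGUMENTA-like Unigene10239_P106, had 12.2 CPM in fruit 1 and 16.6 CPM in fruit 2, against 27.8 CPM in bud 1 and 21.4 CPM in bud 2. Both fruits lay below both buds, with log2 fold change -0.73 ± 0.38 (SE) and unadjusted edgeR p of 0.116. A second unigene of the same hit protein, Unigene96087_P106, had 9.55 and 9.83 CPM in fruits, against 24.1 and 7.76 CPM in buds, so only bud 1 stood high. All 4 unigenes of this hit summed to 34.7 and 37.9 CPM in fruits, against 73.3 and 40.8 CPM in buds, and the log2 fold change of the sum was -0.61 ± 0.37 (SE). The AIL6-like Unigene33133_P106, an AINTEGUMENTA relative, was level at 11.1 and 9.59 CPM in fruits, against 10.6 and 10.5 CPM in buds.

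Unigenes named for the Arabidopsis locus At1g16060, an AP2-type factor, hit 3 tomato proteins that differed in pattern. For the first protein, Unigene135825_P106 had 1.44 and 5.95 CPM in fruits 1 and 2, against 10.3 and 11.2 CPM in buds 1 and 2. Unigene135282_P106 of the same protein had 0 and 0.850 CPM in fruits, against 1.85 and 3.22 CPM in buds, and was the only tested AP2 unigene at least 2-fold lower in both pairs; its 0 in fruit 1 allows up to 0.333 CPM. The sum of this protein was 1.44 and 6.80 CPM in fruits, against 12.1 and 14.4 CPM in buds, with a log2 fold change of -1.61 ± 0.85 (SE) and an unadjusted edgeR p of 0.126. Both fruits lay below both buds, and the 2 fruits were far apart. Without fruit 2, edgeR called Unigene135825_P106 at -2.99 with an adjusted p of 0.00133 and Unigene135282_P106 with an adjusted p of 0.00336; without fruit 1 their log2 fold changes were -0.73 and -1.45. Unigene128400_P106, of another of the 3 proteins, had 2.11 and 9.47 CPM in fruits, against 4.05 and 1.43 CPM in buds, and was the only tested unigene of the whole group with fruit 2 at least 2-fold above every other library (background 2.77%).

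DREB factors, which bind the dehydration-responsive element, had the largest share of tested unigenes within 2-fold in both pairs. The 19 unigenes summed to 192 and 146 CPM in fruits 1 and 2, against 196 and 164 CPM in buds 1 and 2, with the libraries numbered 1 the higher of each organ. That share was 12 of the 14 tested, where 77.5% of all tested unigenes were within 2-fold in both pairs. With only 14 unigenes, this is near the share over all. Unigene10299_P106, described as DREB4 of potato, had 102 and 64 CPM in fruits, against 108 and 83.0 CPM in buds, a log2 fold change of -0.20 ± 0.37 (SE). A DREB3 unigene, Unigene53728_P106, had 20.6 and 25.7 CPM in fruits, against 22.0 and 25.0 CPM in buds, and its organs overlapped. The DREB 3-like Unigene81607_P106 had 8.33 and 4.0 CPM in fruits, against 2.78 and 3.94 CPM in buds, so fruit 1 alone was apart. The DREB 2F-like Unigene90878_P106 had 1.22 and 0.971 CPM in fruits, against 1.5 and 2.03 CPM in buds.

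The ERF class was the largest, with 100 unigenes, 62 of them tested. The KEGG terms of the ERF unigenes were mostly those of the family: 50 carried EREBP-like factor, 5 ethylene-responsive transcription factor 1 and 3 ethylene-responsive transcription factor 2, while 3 carried the term for the euAP2 lineage and 1 that for the ANT lineage of AP2-like factors, 1 carried that of an RNA polymerase subunit and 1 that of a ubiquitin-conjugating enzyme. Their sum was 635 CPM in fruit 1 and 799 CPM in fruit 2, against 726 CPM in bud 1 and 803 CPM in bud 2. Fruit 1 was lowest, and the other fruit lay within the range of the buds. Of the 62, 15 were at least 2-fold lower and 6 higher in pair 1, and 3 were lower and 1 higher in pair 2.

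The most abundant ERF unigene, Unigene54572_P106, described as a putative ethylene-responsive element binding protein of pepper, had 100 and 122 CPM in fruits 1 and 2, against 69.4 and 82.5 CPM in buds 1 and 2. Both fruits lay above both buds, with a log2 fold change of 0.57 ± 0.38 (SE) and an unadjusted edgeR p of 0.201. Unigene53833_P106, described as tobacco NtERF5, had 44.2 and 63.5 CPM in fruits, against 60.0 and 70.7 CPM in buds, a log2 fold change of -0.25 ± 0.41 (SE). Unigene54051_P106, an ethylene responsive factor of tomato, had 27.9 and 67.7 CPM in fruits, against 37.4 and 85.8 CPM in buds. Its libraries numbered 2 were both above its libraries numbered 1, whichever the organ.

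The ERF034-like Unigene49042_P106 had the smallest unadjusted edgeR p of all 140 tested unigenes. It had 3.89 and 3.16 CPM in fruits 1 and 2, against 1.5 and 1.43 CPM in buds 1 and 2, a log2 fold change of 1.26 ± 0.43 (SE) with an unadjusted p of 0.0369 and an adjusted p of 1.0, both by edgeR. Summed with Unigene48861_P106 of the same hit, it had 7.33 and 4.85 CPM in fruits, against 3.12 and 3.58 CPM in buds. The log2 fold change of this sum was 0.87 ± 0.40 (SE). A separate ERF034-like hit, Unigene4016_P106, had 10.0 and 17.6 CPM in fruits, against 12.4 and 19.8 CPM in buds. Unigene49042_P106 was also the only tested unigene of the group at least 2-fold higher in fruit in both pairs on the TMM-scaled values with a prior count of 2. Both its fruits lay above both its buds. Low-level unigenes with the same order were the ERF115-like Unigene48990_P106, at 2.44 and 1.46 CPM in fruits, against 0.347 and 0.716 CPM in buds, and ethylene response factor 1, Unigene86772_P106, at 3.33 and 1.46 CPM in fruits, against 0.347 and 0.955 CPM in buds. In Arabidopsis, ERF115 is known for driving division in stem cell niches and regenerating tissue. Both low-level unigenes had 3 counts in bud 1, so their bud values carry wide counting error. By the printed CPM, which carry no prior count and no TMM factor, the ERF115-like unigene also passed 2-fold in both pairs. Both were picked after their values were seen.

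In the other direction, the ERF061-like Unigene49334_P106 had 1.89 and 1.09 CPM in fruits, against 5.55 and 1.79 CPM in buds, with a log2 fold change of -1.27 ± 0.69 (SE) and an unadjusted edgeR p of 0.131. Only bud 1 was high. The ERF025-like Unigene111434_P106 was the other unigene at least 2-fold lower in both pairs, at 0.667 and 1.82 CPM in fruits, against 1.62 and 4.06 CPM in buds. Its fruit 2 lay above its bud 1, so the organs overlapped. Over the 140, both fruits lay above both buds for 12 (background 8.49%) and below both for 16 (background 13.6%). Both counts were near their backgrounds, so the members named next only describe the lists and are no result about a class. Of the 16 below, 4 were AP2-type factors and 8 were ERF factors, where the 140 held 16 and 62 of these. Among the 8 were the CRF1-like, CRF2-like and a CRF4-like unigene, relatives of cytokinin response factors. A second CRF4-like unigene was among the 12, and the CRF2-like one is the unigene with the RNA polymerase term.

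Several ERF unigenes chosen after their values were seen stood out in fruit 1. The WIN1-like Unigene25633_P106, a relative of the Arabidopsis activator of cuticle wax and cutin genes, had 49.8 CPM in fruit 1 and 8.01 CPM in fruit 2, against 7.17 CPM in bud 1 and 10.6 CPM in bud 2. Fruit 1 was the high library and fruit 2 lay among the buds; the log2 fold change was 1.63 ± 0.87 (SE), without fruit 2 it was 2.36 with an edgeR adjusted p of 0.000327, and without fruit 1 it was -0.04. Another WIN1-like unigene, Unigene19455_P106, had 8.44 and 10.8 CPM in fruits, against 14.0 and 13.7 CPM in buds, so the 2 did not share a direction. The AP2/ERF domain Unigene11071_P106 had 0 CPM in fruit 1, which allows up to 0.333 CPM, and 8.25 CPM in fruit 2, against 4.05 and 11.6 CPM in buds; without fruit 2 its edgeR adjusted p was 7.89e-06. Tomato ethylene response factor 4, Unigene2495_P106, had 33.4 and 5.46 CPM in fruits, against 15.6 and 16.7 CPM in buds, so the 2 fruits lay on opposite sides of the buds.

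**Figure D4:**
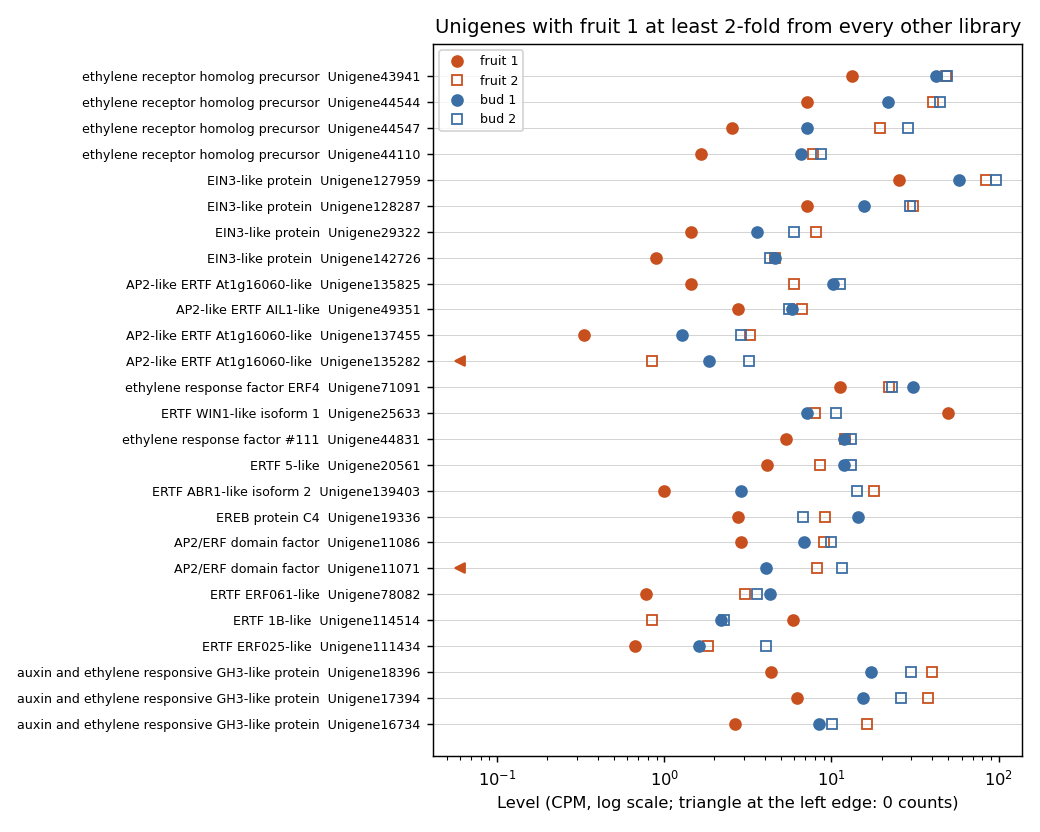
Level in CPM, on a log axis, of the 26 tested unigenes whose fruit 1 value was at least 2-fold below (24) or above (2) every other library after TMM scaling (the plotted CPM are unscaled); filled circles are libraries numbered 1, open squares libraries numbered 2, orange fruit and blue bud, ERTF stands for ethylene-responsive transcription factor and EREB for ethylene responsive element binding. Fruit 2 lies with the buds in most rows, and the WIN1-like and 1B-like factors are the 2 with fruit 1 highest.

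The 12 other ethylene-responsive unigenes, named in tomato, pepper and petunia for a response to ethylene, included level transcripts and widely varying ones. Ethylene-responsive-element-binding factor 2, Unigene53901_P106, a factor whose hyphenated name put it in this class, had 97.5 and 96.4 CPM in fruits, against 95.2 and 98.3 CPM in buds, and a log2 fold change of 0.02 ± 0.33 (SE). The 4 libraries were level. The EF-Ts precursor Unigene16759_P106, a translation elongation factor, had 47.7 and 31.4 CPM in fruits, against 45.2 and 36.3 CPM in buds, and its second unigene, Unigene7465_P106, had 14.7 and 8.62 CPM in fruits, against 12.5 and 7.28 CPM in buds, with the libraries numbered 1 higher in both. The small GTP-binding protein Unigene70637_P106 had 28.0 and 24.5 CPM in fruits, against 33.1 and 33.6 CPM in buds. Both fruits lay below both buds, by a log2 fold change of -0.33 ± 0.29 (SE).

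The auxin and ethylene responsive GH3-like protein of Capsicum chinense, of a family that joins hormones to amino acids, was hit by 3 unigenes. Unigene18396_P106 had 4.33 CPM in fruit 1 and 39.9 CPM in fruit 2, against 17.2 CPM in bud 1 and 30.1 CPM in bud 2. Summed, the 3 unigenes had 13.2 and 93.9 CPM in fruits, against 41.2 and 66.4 CPM in buds. The 2 fruits thus lay on either side of the buds, and the log2 fold change of the sum was 0.08 ± 1.02 (SE). Without fruit 2, Unigene18396_P106 was at -2.57 with an edgeR adjusted p of 0.00200, and without fruit 1 at 0.86, so its direction depended on which fruit was used. The other 2 unigenes of this hit were also called lower without fruit 2, with edgeR adjusted p of 0.0286 for Unigene17394_P106 and 0.0478 for Unigene16734_P106.

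Levels per length, from the deposited RPKM (reads per kilobase of unigene length, scaled to the library's mapped reads), ranked the steps otherwise than the sums. Among tested unigenes the median RPKM over the 4 libraries was 44.8 for EBF, 37.4 for the other ethylene-responsive transcripts, 30.0 for the EIN3-like and ethylene insensitive class, 28.1 for receptors, 11 for ERF, 8.16 for DREB and 6.58 for AP2 factors. The signalling steps thus had higher median levels than the 3 classes of AP2-domain factors, and the ranges of all classes overlapped. Over all tested unigenes the median was 11.6 RPKM, and over the 140 it was 16.0 RPKM. The single highest was Unigene53833_P106, the NtERF5 hit, at 201 RPKM, followed by Unigene53901_P106 at 154 RPKM and Unigene54051_P106 at 151 RPKM.

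**Figure D5:**
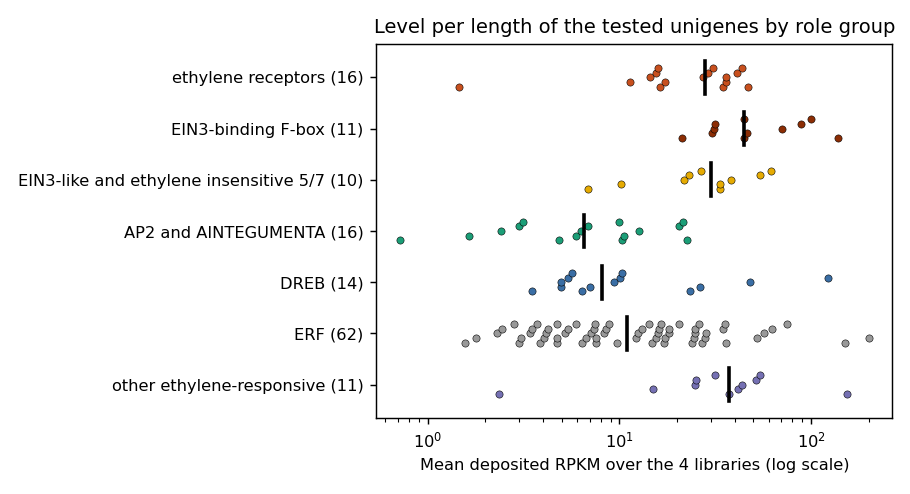
Mean deposited RPKM over the 4 libraries, on a log axis, of each tested unigene, by role group; each point is 1 unigene and the black bar is the group's median. Medians run from 6.58 RPKM for AP2 factors to 44.8 RPKM for EIN3-binding F-box unigenes, and the highest single unigene, an ERF, is at 201 RPKM.

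The rest of the ethylene pathway, outside these transcripts, was read from 123 further unigenes named for hormone synthesis and for regulators of the receptors; 80 of them were tested. The edgeR test called 0 higher and 0 lower, had 0 at an unadjusted p under 0.05, and DESeq2 called 0 of 82. The median log2 fold change was 0.23. ACC oxidase is the last enzyme of ethylene synthesis, and 58 unigenes were named for it. Many of the 58 were described only as its homologs, and whether these make ethylene was not tested. The sum of all 58 was 873 CPM in fruit 1 and 5868 CPM in fruit 2, against 1271 CPM in bud 1 and 3955 CPM in bud 2. The libraries numbered 2 were the high ones in this sum, the order seen in the EIN3-like and first receptor sums. ACC synthase, the enzyme before ACC oxidase, summed to 30.8 and 57.0 CPM in fruits, against 36.9 and 39.8 CPM in buds. The kinase CTR1, which acts beside the receptors, summed to 64.5 and 91.7 CPM in fruits, against 80.4 and 69.4 CPM in buds, and the receptor regulator RTE1 to 11.2 and 13.5 CPM in fruits, against 14.9 and 17.3 CPM in buds. ETO1, which limits ACC synthase, summed to 268 and 264 CPM in fruits, against 215 and 208 CPM in buds, and S-adenosylmethionine synthase to 2218 and 2194 CPM in fruits, against 2114 and 2419 CPM in buds. In CPM without TMM factors, both fruits lay above both buds for the ETO1 sum and below them for RTE1, and the other 4 sums overlapped. Divided by the TMM factors, 0.918 for fruit 2 and 1.04 for bud 1, the RTE1 sums overlap too. The 17 tested ETO1 unigenes had a median log2 change of -0.63 in pair 1 and 0.81 in pair 2. The median log2 fold change over the tested unigenes of all these lists was -0.30 without fruit 2 and 0.45 without fruit 1. Unigene70148_P106 and Unigene115746_P106, both described only as ACC oxidase homologs, were called by edgeR in both of these fits, in opposite directions. They were called lower without fruit 2 and higher without fruit 1. Their log2 changes were -1.02 and -1.20 in pair 1, but 2.38 and 1.99 in pair 2. Their direction thus depended on which fruit was used.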

How the data were processed

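The authors deposited counts of uniquely mapped reads on each assembled unigene, as the column names state, and RPKM values, which scale those counts by unigene length and library; RPKM recomputed from the counts deviated by at most 1.05e-08 in relative terms. Which assembler, aligner or counter made them is not given in the sources used here. Unigenes absent from a library's table entered as 0. Descriptions came from the replicate 2 files for 200 of the 204 unigenes and from the replicate 1 files for 4. The test was edgeR 4.0.16 under R 4.3.3 (filterByExpr, TMM factors 1.08 and 0.918 for fruits and 1.04 and 0.964 for buds, glmQLFit, glmQLFTest, no covariate, 2 residual degrees of freedom, two-sided, Benjamini-Hochberg over 59858 unigenes, threshold 0.05). The SE printed with an edgeR log2 fold change is its absolute value divided by the square root of the quasi-likelihood F statistic. It thus draws on the spread of all tested unigenes and is not an SE from the libraries of 1 unigene alone. CPM were taken over library totals, with no TMM factor. Every count of unigenes past 2-fold or 4-fold, within pairs or between libraries, used log2 CPM with TMM factors and a prior count of 2, and counts were also summed per hit protein. DESeq2 1.42.0, other filters and scalings and leaving out each library were alternatives.

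The unigenes and marker lists were chosen with earlier results of these data known. The rule for named unigenes took, in each role class, the 3 tested unigenes with the highest mean CPM and the one with the smallest unadjusted p in each direction, any called unigene, and any at least 4-fold apart the same way in both pairs. It named 30; other unigenes in the text were chosen after their values were seen. Samples with the same number deviated together with r = 0.467 over all tested unigenes, from only 2 pairs. The samples were therefore treated as sharing only a number.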

Additional observations from a re-analysis of the deposited data

How the results depend on the processing

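DESeq2 called 30 unigenes higher and 128 lower in fruit of all those it tested, in place of 0 and 0 by edgeR. Leaving out each library in turn gave 0 to 1546 higher and 0 to 4135 lower over all unigenes, and 0 to 2 higher and 0 to 17 lower among the ethylene and AP2/ERF unigenes, whose median log2 fold change ran from -0.41 to 0.10. For the rest of the ethylene pathway it gave 0 to 3 higher and 0 to 8 lower, with a median from -0.30 to 0.45. Every non-zero count on leaving out a library came from leaving out a fruit. Size factors of DESeq2, no filter, a filter of at least 1 CPM in 2 libraries, which kept more unigenes (62519), and summing per hit protein gave 0 calls in edgeR; no stricter filter was run. Taking the replicate 1 descriptions first gave 163 unigenes, 141 of them shared, and no call. Outside the fits with a library left out, the median stayed between -0.16 and 0.01. Of the 30 named unigenes, 7 changed sign without fruit 1, 9 without fruit 2, 8 without bud 1 and 5 without bud 2.

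With the replicate number as a block (replicate block), edgeR called 0 unigenes in either direction and the median of the ethylene and AP2/ERF unigenes was -0.13; the pairing rests on 2 pairs that share only a number. With 2 libraries per organ, 2 residual degrees of freedom and fruits that differ widely, an absence of calls does not show that levels were equal. Unigenes under about 3 counts cannot be told from 0.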

Other observations

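The 13 unigenes whose libraries numbered 2 were both, after TMM scaling, at least 2-fold above both libraries numbered 1 included 3 unigenes named for ABR1, in Arabidopsis a repressor of the abscisic acid response. The ABR1-like Unigene139403_P106 had 1.0 CPM in fruit 1 and 18.1 CPM in fruit 2, against 2.89 CPM in bud 1 and 14.2 CPM in bud 2. Unigene137837_P106 of the same hit had 2.78 and 18.7 CPM in fruits, against 3.01 and 15.3 CPM in buds, and Unigene94265_P106, of the other ABR1-like isoform, had 0.889 and 5.82 CPM in fruits, against 1.27 and 4.06 CPM in buds. The fruits and buds overlapped in all 3. Without fruit 2, edgeR called Unigene139403_P106 lower in fruit with an adjusted p of 0.00545.

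The ERF098 hit Unigene77521_P106 had 22 counts in fruit 1, or 2.44 CPM, and 0 in fruit 2, bud 1 and bud 2, where 0 allows up to 0.364, 0.347 and 0.358 CPM. It did not pass the filter on low counts, and this value rests on 1 library; without fruit 2 it passed, and edgeR called it higher in fruit with an adjusted p of 0.0221.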
